A study of Mus musculus with 6 samples.

Results

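The miR-297, miR-466, miR-467 and miR-669 families make up a microRNA (miRNA) cluster that sits in an intron of the mouse gene Sfmbt2. Members were all entries of the deposited small RNA count table whose name gives one of these 4 families, with any letter, copy number or arm. This gave 59 of the 1364 miRNAs in the table, of which 3 belonged to miR-297, 23 to miR-466, 11 to miR-467 and 22 to miR-669. Members with the same 6 counts as another member could not be told apart by the data, and when each such set was counted once 56 members remained.

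Small RNA was sequenced from the nucleus accumbens (NAc), a reward region of the ventral striatum, of adult male C57BL/6N mice aged 7 to 8 weeks. Mice of the morphine group received 10 mg/kg morphine and mice of the saline group received saline during 6 days of conditioned place preference (CPP) training, in which an animal learns to link a compartment with the drug. Place preference was tested on day 7 and the NAc was taken shortly after the test. Each group had 3 libraries, called replicates 1 to 3 here, and the sample records count 2 mice for each library while the study describes them as single animals. The p-values below therefore measure the spread between these libraries. The comparison asks which of these miRNAs differed in the NAc after morphine CPP.

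The library totals ran from 4183333 to 9842050 counts. Saline replicate 2 stood apart from the other saline libraries. Fitted changes of called members that moved by over 1.5 times without it are given both ways. Where no saline count was left without it, this is stated in place of a fitted change. The neuronal list (miR-124-3p, miR-9-5p and miR-128-3p, with 1 of 3 lower) was summed as CPM, the usual counts-per-million unit after TMM (trimmed mean of M-values) scaling between libraries. It lay between 127126 and 270801 CPM in the saline libraries and between 176647 and 204976 CPM in the morphine libraries, and no neuronal marker was at 0. The lower marker was miR-124-3p (log2 fold change -1.88), while miR-9-5p (-0.15) and miR-128-3p (0.47) were not called. The sums of some lists of other cell types moved with the groups. The endothelial list (miR-126a-3p and miR-126a-5p, with 1 of 2 higher) ran from 1485 to 5002 CPM in saline and from 10984 to 16264 CPM in morphine. In that list miR-126a-3p was higher (log2 fold change 2.42), while miR-126a-5p went the other way and was not called (-0.96). The erythroid list (1 of 3 higher) ran from 208 to 311 CPM against 358 to 571 CPM. Of these, miR-451a was higher (log2 fold change 1.57), while miR-144-3p (-1.31) and miR-486a-5p (-0.20) went the other way and were not called. The list for microglia and leukocytes (1 of 4 lower) ran from 238.0 to 757.6 CPM against 125.1 to 153.99 CPM. There miR-150-5p was lower (-2.03), while miR-223-3p (0.41), miR-142a-3p (-0.39) and miR-142a-5p (-0.67) were not called. The choroid plexus list (2 of 4 higher and 1 lower) ran from 1253 to 2584 CPM against 676 to 825 CPM. The muscle list (1 of 3 lower) ran from 72.4 to 970 CPM against 444 to 554 CPM, miR-122-5p of liver was lower at 7.95 to 56.4 CPM against 5.18 to 5.75 CPM, and the oligodendrocyte list (0 of 2 called) ran from 1809 to 1901 CPM against 1571 to 1959 CPM. None of the members of these lists was at 0 in all libraries, and their part in the differences below was not tested. In bulk tissue, fewer cells of a type and less RNA per cell cannot be told apart.

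A miRNA is cut from a hairpin transcript, and either strand of the hairpin stem, the 5p or the 3p arm, can be kept to guide the silencing of target mRNAs. Bases 2 to 8 of the mature miRNA, the seed, do most of the pairing with targets. Sfmbt2 encodes a polycomb-group protein and is imprinted, with expression from the paternal copy in the placenta and early embryo. Its intron expanded in rodents into a long array of near-copies of the same hairpins, many of them rich in CA or UG repeats.

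In the GENCODE annotation of GRCm38, 71 of 81 hairpin genes named after the 4 families lie inside Sfmbt2. All 71 are on the strand of that gene. They span chr2:10466663-10518279, a stretch of 51617 bp within intron 10 of the protein-coding transcript Sfmbt2-201 (chr2:10461473-10523944). The array is regular. The starts of the 11 Mir467a and Mir467b hairpins there were separated by a median of 2454.5 bp. By name, 47 members could come only from hairpins inside Sfmbt2 and 4 from hairpins both inside and outside it (miR-297a-5p, miR-466f, miR-466f-3p and miR-466f-5p). A further 6 came only from hairpins elsewhere (miR-466i-3p, miR-466i-5p, miR-466j, miR-466k, miR-466q and miR-467f), and miR-466a-3p and miR-466a-5p were not placed. Many mature miRNAs match several hairpins by name, with 12 for miR-669a, 10 for miR-467a and 8 for miR-466b, so their counts cannot be assigned to a single copy. Another 48 miRNA genes are annotated inside Sfmbt2, all with a symbol starting with Gm. Table entries were sought by gene symbol alone, which cannot find genes with such symbols, so it is not known whether the table lists their products. By synonym, Gm25285 is a hairpin of the member miR-466c-5p.

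RefSeq (GRCm38.p6) gave mature sequences for 5 of the 59 members. All 5 come from hairpins outside Sfmbt2 and are shown because they display the repeat letters of these families, with the seed in capitals.
miR-466i-3p: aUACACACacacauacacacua
miR-467f: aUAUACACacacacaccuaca
miR-466q: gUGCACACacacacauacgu
miR-466k: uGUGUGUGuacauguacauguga
miR-466j: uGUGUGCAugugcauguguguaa
No seed was shared between any of them. The first lies at chr13:17747552-17747573 on the plus strand, opposite the gene Cdk13. The second lies at chr11:69635419-69635439 on the minus strand, opposite Fxr2. The miR-466q sequence lies at chr3:28419988-28420007 on the plus strand, inside Tnik and on the same strand. The miR-466k sequence lies at chr3:85467396-85467418 and that of miR-466j at chr10:60960802-60960824, both on the plus strand. The letters ACACAC, searched on the mature strand, occurred in 7 of the 1089 table entries that matched a RefSeq mature sequence (0.643%), of which 3 were members. The letters GUGUGU occurred in 12 of them (1.10%), of which 2 were members.

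**Figure D1:**
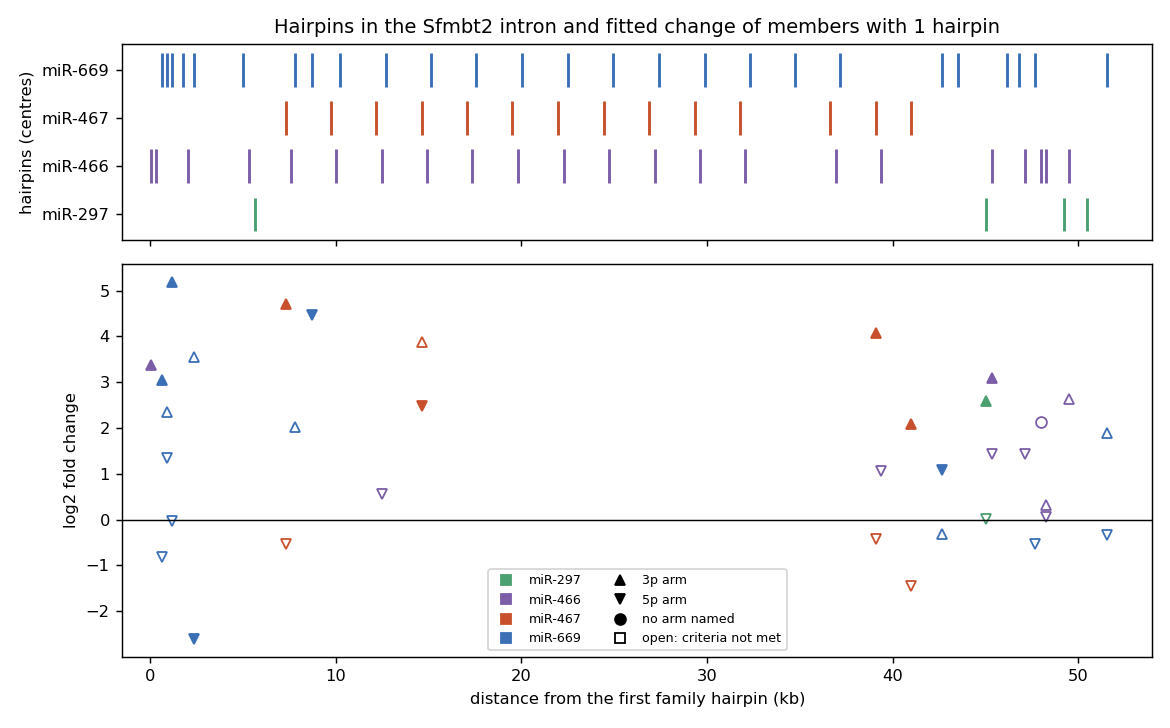
Upper panel, centres of the 66 hairpins in the Sfmbt2 intron that carry a listed member, by family, against distance from the first of them in kb. Lower panel, log2 fold change (morphine against saline) of the 35 members with a single hairpin that lies in this intron, with filled symbols for members that met the criteria; upward triangles (3p arm) lie mostly above 0 at both ends of the array, while downward triangles (5p arm) lie on both sides of it.

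Most members that changed were higher in the morphine group. The study's criteria for miRNAs were a |log2 fold change| ≥ 0.58 together with an unadjusted p ≤ 0.05. In edgeR's quasi-likelihood test 19 members met them as higher and 1 as lower after morphine, and 39 did not pass. Over all 1364 miRNAs tested, 9.68% were called higher, 9.68% lower and 19.4% in either direction. The median log2 fold change was 1.34 over the members and -0.15 over all miRNAs. For a second pair of medians, miRNAs without a count in a group were set to their bound, or to no change where the bound was below 1-fold. These medians were 0.56 and 0.00. With a Benjamini-Hochberg adjusted p under 0.05, 11 members passed, all of them higher, against 5.21% of all miRNAs. The normalized levels of the groups did not overlap for 23 members that were higher and 3 that were lower in the morphine group, against 12.2% and 9.9% of all miRNAs. In a refit with miRNAs of identical counts collapsed to 1 entry, 18 of the 56 remaining members were higher and 1 was lower, against 12.1% and 9.02% of 1120 entries (21.1% in either direction), and 2 had an adjusted p under 0.05, against 2.86%.

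The strict count depended on single libraries. It was 0 without morphine replicate 1, where 20 members still had an unadjusted p under 0.05 in edgeR and no miRNA of the whole table passed. It was 6 without morphine replicate 3 (10.2% of the members, against 4.02% of all miRNAs) and 6 without saline replicate 3 (10.3% against 4.88%). Without saline replicate 2 it was 21 of 58, of which miR-467d-5p was lower, a share of 36.2% that was near the 29.1% of all miRNAs. Under the study criteria, 12 members were called without morphine replicate 3, all higher, where 188 of 1342 miRNAs were called, and 28 without saline replicate 2 (27 higher), where 37.0% of all miRNAs were called. The median over the members without saline replicate 2 was 2.42.

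**Figure D2:**
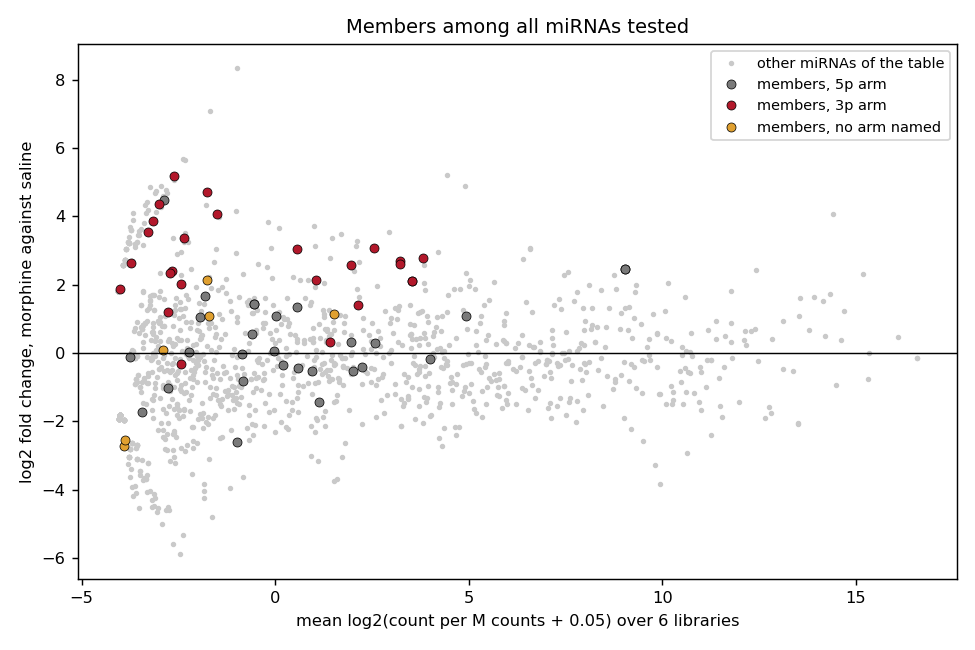
Log2 fold change (morphine against saline) against the mean level over the 6 libraries, on a log2 scale of CPM by library total plus 0.05, with every miRNA of the table in grey and the 59 members coloured by arm. The 3p members, with a median of 2.62, lie mostly in the upper part of the cloud at low to middle levels, and the most abundant point among the members is miR-467a-5p.

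The miR-467 family held the most abundant member by CPM, a scale with no length term. The miR-467a-5p and miR-467b-5p entries had identical counts of 1247, 1451 and 2085 in saline replicates 1 to 3 and of 10277, 8535 and 8271 in morphine replicates 1 to 3. After TMM scaling these were 228, 218 and 218.7 CPM in the saline libraries against 1137, 1251 and 1299 CPM in the morphine libraries. Every morphine library lay far above every saline library. The 3 saline libraries were nearly equal only after scaling, with TMM factors of 1.31, 0.80 and 1.32 for saline replicates 1 to 3. Relative to its library total, saline replicate 2 was the lowest of these 3. The mean level rose from 222 ± 5.86 to 1229 ± 83.1 CPM (SD, n = 3), a log2 fold change of 2.47 with an SE of 0.44 and an adjusted p of 0.0026 in edgeR. It met the study criteria under all 19 other settings tried, at log2 fold changes between 2.12 and 2.62. Its adjusted p was 0.0711 without morphine replicate 1. The name of miR-467a matches 10 hairpins in Sfmbt2 and that of miR-467b matches 1.

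Far fewer reads were counted for the 3p entry of miR-467a, which could not be told apart from that of miR-467d. The separate entry miR-467b-3p had 5 counts in total. The miR-467a-3p and miR-467d-3p entries had identical counts of 30, 68 and 23 in the saline libraries against 203, 191 and 171 in the morphine libraries. All morphine libraries were again higher than all saline libraries, with saline replicate 2 the highest of its group after scaling. The level rose from 6.03 ± 3.92 to 25.8 ± 2.92 CPM (log2 fold change 2.10, SE 0.59, adjusted p = 0.0444 in edgeR), and the log2 fold change without saline replicate 2 was 2.74.

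The 3p members miR-467c-3p and miR-467e-3p were close to the detection floor in saline. miR-467c-3p had counts of 0, 1 and 0 in the saline libraries against 5, 6 and 23 in the morphine libraries, a ratio of levels of 33.1 with an exact 95% counting interval of 5.56 to 1347. miR-467e-3p had counts of 0, 2 and 0 against 8, 6 and 25, a ratio of 19.0 with an interval of 4.92 to 162. These intervals cover counting error only. Morphine replicate 3 held most of the counts of both, and neither met the criteria without it. Without saline replicate 2 both were at 0 in saline. The adjusted p in edgeR was 0.0397 for miR-467c-3p and 0.0504 for miR-467e-3p.

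With all libraries, none of the 5p partners miR-467c-5p, miR-467d-5p and miR-467e-5p passed the test, but miR-467d-5p lay close to the threshold. The counts of miR-467c-5p were 23, 35 and 47 in the saline libraries against 36, 25 and 15 in the morphine libraries, and the scaled levels were lower in every morphine library (log2 fold change -0.52, SE 0.63), which did not pass the test. The counts of miR-467d-5p were 16, 21 and 49 against 19, 8 and 5, also without overlap of the scaled levels (log2 fold change -1.44, SE 0.71, unadjusted p = 0.0523 in edgeR). It was called lower under 11 of 19 other settings, among them DESeq2, edgeR's exact test, RLE, library total and upper quartile scaling, and without morphine replicate 1, saline replicate 1 or saline replicate 2, at log2 fold changes between -1.44 and -1.81. Both were singled out after their values were seen. The levels of miR-467e-5p were 2.56, 18.3 and 1.36 CPM against 6.53, 5.86 and 4.24 CPM, and saline replicate 2 was the highest of the 6 libraries. Its log2 fold change was -0.41 (SE 0.76) with all libraries and 1.54 without saline replicate 2, where it met the criteria.

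**Figure D3:**
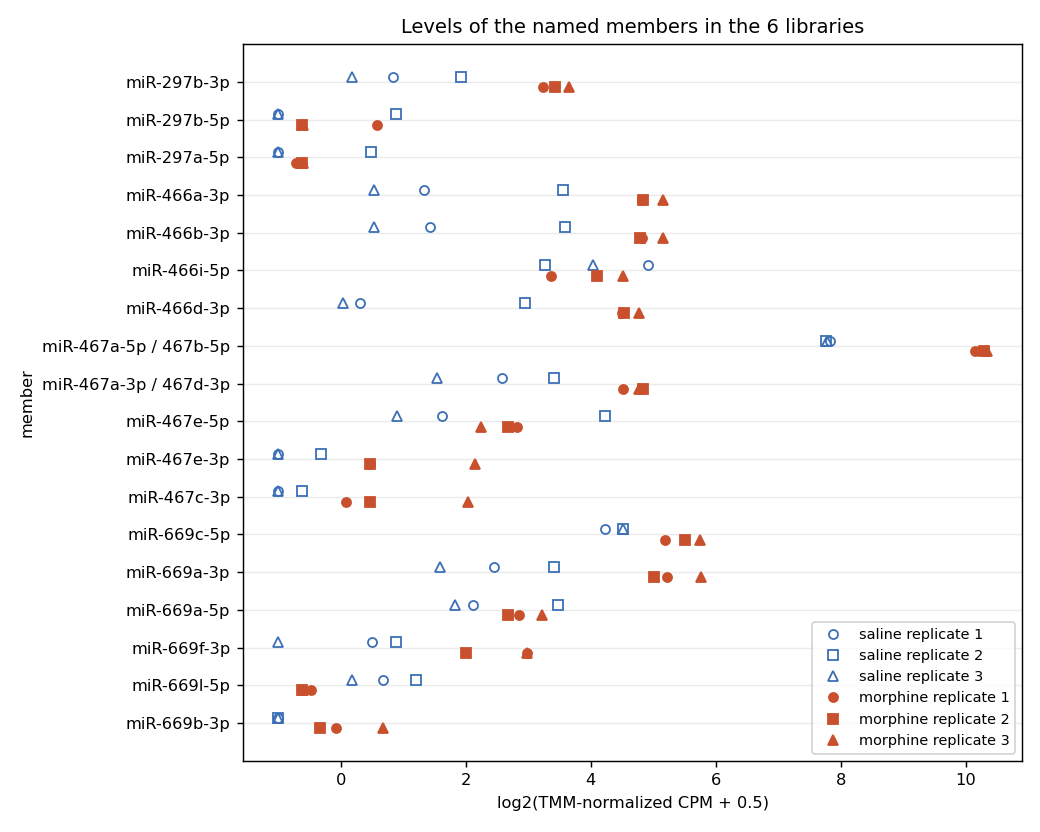
Level of the members named by the fixed rule in each library, as log2 of TMM-normalized CPM plus 0.5, with open blue symbols for saline and filled orange symbols for morphine. miR-467a-5p and miR-467b-5p lie far to the right at 222 ± 5.86 and 1229 ± 83.1 CPM, and the open square, saline replicate 2, is the highest saline symbol in most of the other members.

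In the miR-669 family 6 of 22 members were higher and 1 was lower in the morphine group, with 15 that did not pass. Of all miRNAs, 9.68% were called higher and 9.68% lower. The name of miR-669a-3p matches 12 hairpins, of which Mir669a-3 also has its own entry, miR-669a-3-3p. miR-669a-3p had counts of 27, 68 and 24 in the saline libraries against 333, 216 and 342 in the morphine libraries. The groups were well apart, with the lowest morphine library at 31.6 CPM and the highest saline library at 10.2 CPM. The log2 fold change was 2.79 (SE 0.58, adjusted p = 0.0087 in edgeR), and 3.48 without saline replicate 2. Its 5p partner, miR-669a-5p, had counts of 21, 71 and 29 against 61, 40 and 56, and its saline replicate 2 was the highest of all libraries (log2 fold change 0.29, SE 0.64). Without saline replicate 2 the value for miR-669a-5p was 1.06 and met the criteria.

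miR-669c-5p was the member of this family with the highest mean level. Its levels were 18.3, 22.5 and 22.4 CPM in saline against 35.8, 45.3 and 53.1 CPM in morphine, and the mean rose from 21.1 ± 2.41 to 44.7 ± 8.63 CPM. The groups did not overlap, but the change was modest (log2 fold change 1.08, SE 0.51, unadjusted p = 0.0450 in edgeR) and the call was lost under 8 of 19 other settings, 4 of them without saline replicate 1, saline replicate 3, morphine replicate 2 or morphine replicate 3. miR-669f-3p had counts of 5, 9 and 0 against 67, 24 and 47 (log2 fold change 3.05, SE 0.85, adjusted p = 0.0437 in edgeR), and its log2 fold change without saline replicate 2 was 4.01. miR-669b-3p was at 0 in saline and had 4, 2 and 7 counts in morphine replicates 1 to 3, a level at least 1.40-fold higher against a floor of 3 counts per library, and its call was lost without morphine replicate 3.

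With all libraries and TMM scaling, the single lower member was miR-669l-5p. Under 8 of 19 other settings it was joined by miR-467d-5p, and under 4 no member was called lower. Its counts were 6, 12 and 6 in the saline libraries against 2, 1 and 1 in the morphine libraries, so the scaled levels did not overlap. The log2 fold change was -2.60 (SE 1.15, unadjusted p = 0.0245 and adjusted p = 0.169 in edgeR), and the call was lost under 6 of 18 settings, among them without saline replicate 1, saline replicate 2, morphine replicate 2 or morphine replicate 3. The other 2 calls in this family, miR-669k-5p (0, 0 and 0 against 3, 3 and 2) and miR-669m-3p (0, 0 and 0 against 1, 2 and 4), rested on fewer than 10 counts in total and no fold is given.

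In the miR-466 family 6 of 23 members were higher and none was lower, with 17 that did not pass. Of all miRNAs, 9.68% were called higher and 9.68% lower. The counts of miR-466a-3p were 11, 75 and 9 in the saline libraries against 252, 192 and 225 in the morphine libraries (log2 fold change 2.69, SE 0.69, adjusted p = 0.0331 in edgeR). miR-466b-3p, whose name matches 8 hairpins, had counts of 12, 77 and 9 against 251, 186 and 224 (log2 fold change 2.62, SE 0.69, adjusted p = 0.0365 in edgeR). These 2 entries had nearly equal counts in every library, with a smallest ratio of 0.917, so they may count many of the same reads. miR-466d-3p, from a single hairpin, had counts of 4, 48 and 5 against 201, 155 and 170 (log2 fold change 3.08, SE 0.73, adjusted p = 0.0239). In each of these 3 members saline replicate 2 was several times higher than the other saline libraries and still below every morphine library. Without that library the log2 fold change of miR-466d-3p was 5.25, that of miR-466a-3p was 4.42 and that of miR-466b-3p was 4.32.

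The remaining 3 miR-466 calls had lower levels, and only miR-466i-3p among all called members was placed entirely outside Sfmbt2. miR-466i-3p, whose sequence is the first shown above and whose only placed hairpin lies on chromosome 13, had counts of 12, 2 and 8 in saline and 36, 36 and 33 in morphine. All morphine libraries lay above all saline libraries (log2 fold change 2.13, SE 0.74, unadjusted p = 0.0097 and adjusted p = 0.0936 in edgeR), and the log2 fold change was 3.09 without saline replicate 1. The other arm of that hairpin, miR-466i-5p, was the more abundant, with levels of 29.8, 9.15 and 15.8 CPM against 9.85, 16.6 and 22.3 CPM, which overlapped (log2 fold change -0.17, SE 0.58). miR-466f-3p had counts of 25, 10 and 24 against 49, 60 and 53 (log2 fold change 1.39, SE 0.64, adjusted p = 0.243 in edgeR, and 1.98 without saline replicate 1). miR-466m-3p had 0, 1 and 0 against 9, 1 and 5, a ratio of 14.6 with an exact 95% counting interval of 2.25 to 615. Its groups overlapped, with morphine replicate 2 at 0.147 CPM and saline replicate 2 at 0.150 CPM, and without saline replicate 2 it was at 0 in saline. These 3 calls were chosen for naming after their values were seen.

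The miR-297 family had 3 members. miR-297b-3p had counts of 7, 22 and 6 in the saline libraries against 81, 70 and 77 in the morphine libraries, and its groups did not overlap (log2 fold change 2.59, SE 0.67, adjusted p = 0.0331 in edgeR). Without saline replicate 2 its log2 fold change was 3.50. Its partner miR-297b-5p had counts of 0, 9 and 0 against 9, 1 and 1. The third member, miR-297a-5p, had counts of 0, 6 and 0 against 1, 1 and 1. With all libraries, no difference was detectable at this depth for these 5p members, whose saline counts all came from saline replicate 2. Without that library both were at 0 in saline, and miR-297b-5p met the criteria as higher, on counts of 9, 1 and 1 in morphine.

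Summed over a family, the normalized levels were higher in every morphine library than in every saline library for all 4 families. The same held when counts were divided by library totals alone. The miR-467 sum rose from 471 ± 15.4 to 2523 ± 172 CPM (5.35-fold, or 5.21-fold with identical members counted once). The small saline SD of the miR-467 sum depended on TMM scaling. As a share of library totals that sum was 0.0623%, 0.0386% and 0.0600% in saline replicates 1 to 3. In morphine replicates 1 to 3 it was 0.214%, 0.241% and 0.225%. The miR-466 sum rose from 49.1 ± 15.6 to 137 ± 18.5 CPM (2.80-fold) and the miR-669 sum from 43.5 ± 14.3 to 110 ± 21.8 CPM (2.52-fold). The miR-297 sum rose from 2.49 ± 2.67 to 11.01 ± 1.23 CPM (4.43-fold), and saline replicate 2 held 37 counts against 7 and 6 in the other saline libraries. On the log2 scale that difference was 2.15, and 3.53 without saline replicate 2. No p is given for these sums, since the members were chosen with results known.

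One entry set most of the total. With identical members counted once, miR-467a-5p made up between 57.0% and 72.7% of the members' counts in the saline libraries and between 78.9% and 82.0% in the morphine libraries. The sum of the other 55 members was 104, 164 and 82.2 CPM in saline replicates 1 to 3 and 267, 275 and 347 CPM in morphine replicates 1 to 3. These groups did not overlap either, and the mean was 2.54-fold higher in the morphine group.

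The 2 arms differed in how many of their members were called. Of 25 members of the 3p arm, 15 were called higher after morphine and 0 lower, and the median log2 fold change was 2.62. It was 2.10 with members without a count in a group at their bound, or at no change where that was below 1-fold. Of 28 members of the 5p arm, 4 were higher (the identical miR-467a-5p and miR-467b-5p, miR-669c-5p and miR-669k-5p) and 1 was lower, with a median of 0.04. None of the 6 members without an arm in the name was called in edgeR, none of those 6 had an unadjusted p under 0.05, and 0 were called by DESeq2 or edgeR's exact test. Without saline replicate 2, 2 of these were called higher, against 20.9% of all miRNAs. Without saline replicate 1, 1 was called higher, where 17.8% of all miRNAs were called in either direction. Among the other miRBase miRNAs of the table, 49 of 588 3p entries were higher and 65 lower, with a median of -0.20, and 44 of 545 5p entries were higher and 56 lower, with a median of -0.35. The difference between arms was not tested over members, which share hairpins and reads.

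The arm counts were also computed under each other setting. Between 9 and 16 members of the 3p arm were called higher and 0 lower under all 19 of them, with 9 when morphine replicate 3 was left out. Over the same settings between 13.1% and 37.0% of all miRNAs were called in either direction. For the 5p arm the count depended on saline replicate 2. Without it 11 of 28 members of the 5p arm were higher and 1 was lower, with a median of 1.65. The 3p arm had 14 of 25 higher and a median of 3.57. Of all miRNAs, 20.9% were called higher and 16.1% lower without that library (37.0% in either direction), with a median of 0.20. Under the remaining settings between 2 and 4 members of the 5p arm were higher and between 0 and 2 were lower, with 2 lower (miR-467d-5p and miR-669l-5p) under 8 of them, where 3 or 4 were higher. The 5p median changed sign under RLE, library total and upper quartile scaling and in DESeq2.

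**Figure D4:**
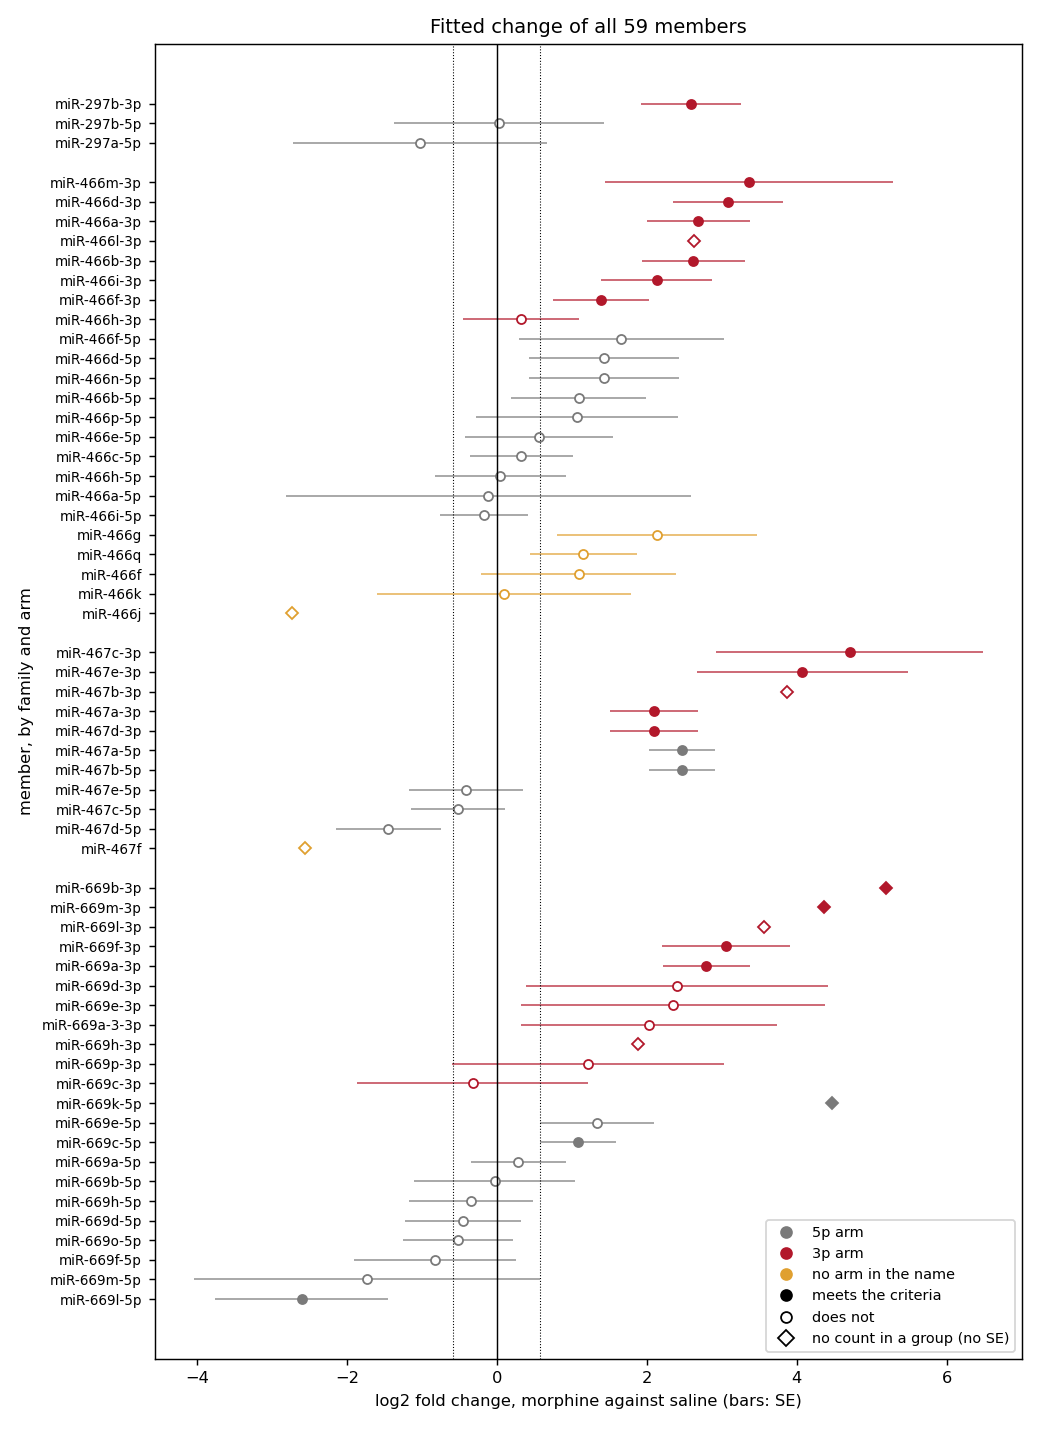
Fitted log2 fold change (morphine against saline) of the 59 members with its SE, by family and coloured by arm, with filled symbols for members that met the criteria, diamonds for members without a count in a group and dotted lines at 0.58 in each direction. The 15 filled red symbols (3p arm) all lie to the right of 0, while the grey symbols (5p arm) lie on both sides with 4 filled to the right and 1 to the left.

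The ratio of the arms of one hairpin name can be read within a library, without any scaling between libraries. The ratio was taken as log2((3p count + 0.5) / (5p count + 0.5)) for the 14 names with at least 10 counts on each arm, of 21 with both arms listed. It was higher in every morphine library than in every saline library for 7 names (miR-466i, miR-467c, miR-467d, miR-467e, miR-669a, miR-669b and miR-669f) and lower in every morphine library for none. Of these names, miR-467c, miR-467e and miR-669b reached 10 counts on the 3p arm only through the morphine libraries. Their 3p counts in saline were 0, 1 and 0 for miR-467c, 0, 2 and 0 for miR-467e, and 0 throughout for miR-669b. Their saline ratios were thus set largely by the added 0.5 and the 5p count, and they give little support. Over all 258 hairpin names of the table with at least 10 counts on each arm, 20.5% were higher and 15.1% lower without overlap. The median difference between the groups was 2.39 over the 14 members and 0.08 over the 244 other names. The 14 include miR-467c, miR-467e and miR-669b.

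For miR-669a the log2 ratio was 0.36, -0.06 and -0.27 in saline replicates 1 to 3 and 2.44, 2.42 and 2.60 in morphine replicates 1 to 3. The arms were thus about equally counted in each saline library, while the 3p arm led in each morphine library. For miR-466i the ratio was -3.71, -4.62 and -4.16 against -1.29, -1.64 and -2.09, so the 5p arm led in all 6 libraries, by less in the morphine group. For miR-467e it was -4.86, -5.61 and -4.75 against -2.81, -2.64 and -0.11, where the saline values rest on almost no 3p counts. Each of the 7 names had p = 0.1 in a two-sided exact permutation test, the smallest value that 3 against 3 libraries allow, and 0.2 after adjustment over the 14 names. For miR-467c, miR-467e and miR-669b this p is no support, since they passed the count filter on the 3p arm only through the morphine libraries.

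For the other 7 names the groups overlapped. For miR-467a, the most abundant hairpin name, the ratio was -5.35, -4.41 and -6.47 in saline and -5.66, -5.48 and -5.59 in morphine, with overlapping groups (exact permutation p = 0.7). For miR-669c it was -7.65, -5.43 and -5.94 against -6.17, -7.69 and -9.40 (exact permutation p = 0.2). The value for miR-467d, which rose from 0.49 ± 1.41 to 4.28 ± 0.81, used the 3p entry that is identical to miR-467a-3p and is uncertain for that reason. The miR-467a ratio has the same limit, since its 3p entry is that shared one and its 5p entry is identical to miR-467b-5p. For miR-466d the 5p entry is identical to miR-466n-5p. Leaving out 1 library at a time, between 7 and 9 of the 14 names were higher without overlap, 8 of them without saline replicate 2, and at most 1 was lower. The median difference over the 14 names was then 1.74 without saline replicate 2.

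**Figure D5:**
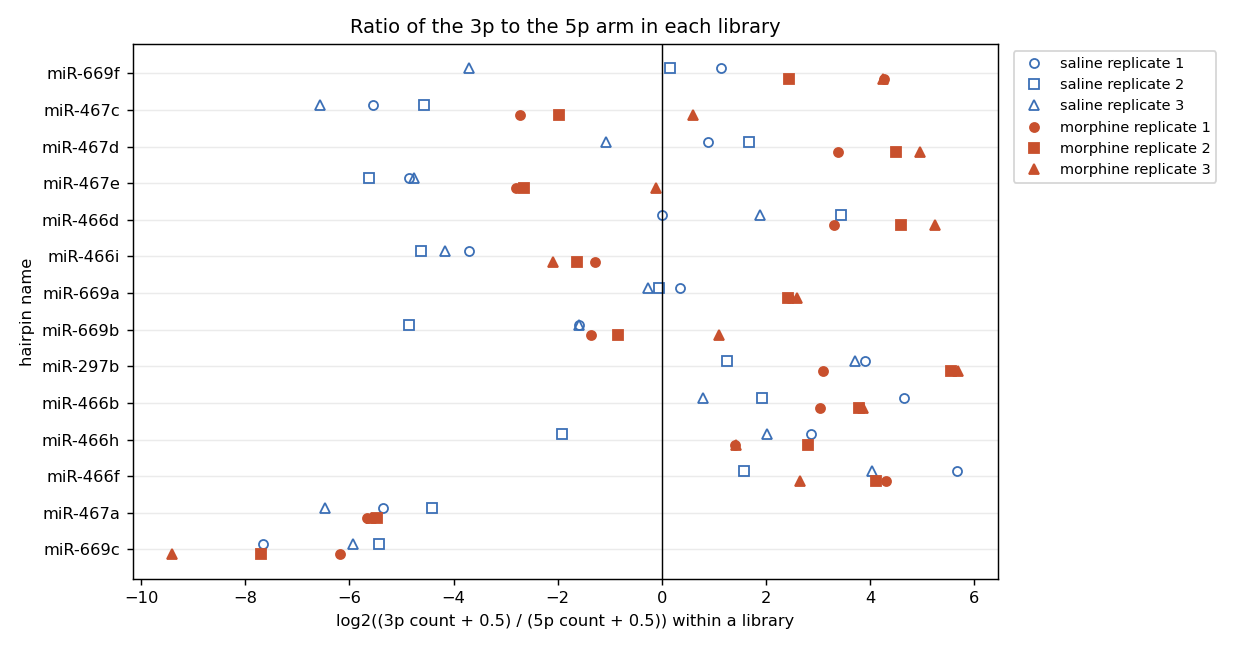
Log2 ratio of the 3p to the 5p count within each library for the 14 hairpin names with at least 10 counts on each arm, with open blue symbols for saline and filled orange symbols for morphine. In 7 names, among them miR-669a and miR-466i, all filled symbols lie to the right of all open ones, and in miR-467a they overlap. Of the 7 names, miR-467c, miR-467e and miR-669b had few or no 3p counts in saline.

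The saline libraries were not alike in these families. Saline replicate 2 had the lowest TMM factor of the 6 libraries, at 0.80, which raises its scaled levels against the other libraries. The factors were 1.31 and 1.32 for saline replicates 1 and 3, and 0.92, 0.94 and 0.84 for morphine replicates 1 to 3. Over the 41 members with at least 10 counts, identical ones counted once, saline replicate 2 was the highest saline library in 29 after scaling, and the highest of all 6 libraries in 13, of which 12 were of the 5p arm. As a description, Spearman's rho of the levels over these 41 members, which share libraries and partly reads, was between 0.849 and 0.930 within the morphine group. It was 0.880 between saline replicates 1 and 3, and 0.647 and 0.671 between saline replicate 2 and these 2 libraries. Between saline replicate 2 and morphine replicates 1 to 3 it was 0.757, 0.749 and 0.616. With the same morphine libraries it was 0.759, 0.803 and 0.678 for saline replicate 1, and 0.614, 0.694 and 0.537 for saline replicate 3.

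By place, 16 of the 47 members found only inside Sfmbt2 were higher and 1 was lower. Of 4 with hairpins both inside and outside, 1 was higher (miR-466f-3p). Also higher were 1 of 6 from elsewhere (miR-466i-3p) and 1 of 2 that were not placed (miR-466a-3p). Over all 1364 miRNAs, 9.68% were called higher and 9.68% lower. Counts were too few for many members. A total of 15 members had fewer than 10 counts over the 6 libraries, and 2 of these were called (13.3%), against 18 of the other 44 (40.9%). Of all miRNAs, 19.4% were called in either direction. miR-466l-3p, miR-467b-3p, miR-669h-3p and miR-669l-3p were at 0 in all saline libraries and miR-466j and miR-467f in all morphine libraries, each with at most 5 counts in total, and for these no fold is given.

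The miR-379 to miR-410 cluster, another large imprinted miRNA cluster with 73 entries in the table, gave a comparison with better-counted miRNAs. After morphine 6 of them were higher and 10 lower by the same criteria, and the median log2 fold change was -0.27. Its share of 21.9% called was near the 19.4% of all miRNAs. The count moved with that of the whole table, with 36 of 72 called without saline replicate 2 (50.0%, against 37.0% of all miRNAs) and 9 without morphine replicate 1 (12.3% against 13.3%).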

How the data were processed

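Small RNA libraries of the NAc (3 saline, 3 morphine) were analysed, with groups and replicate numbers from the sample records. The count column of every library was used. Per the study's methods, the authors removed adapter, poly-N, low-quality, short and long reads, filtered the rest with Bowtie against ribosomal, transfer and other non-coding RNA and against repeats, and compared the remaining reads with miRBase. The effect of the repeat filter on members rich in CA or UG repeats was not tested. The deposited counts are whole reads of each mature miRNA, not normalized or pooled by the authors. The authors also deposited TPM values (each count scaled to its library total), which entered no test. The counting tool, how reads that match several miRNAs were counted, the genome build and the miRBase release are not given in the sources used here, nor is the test behind the study's miRNA calls.

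Counts of all 1364 miRNAs with at least 1 count were tested in edgeR 4.0.16 (R 4.3.3) by quasi-likelihood, with TMM scaling and no covariate, and p-values were adjusted by the Benjamini-Hochberg method over the whole table. The earlier form of that test was used, as in previous processing of these data. The bias-adjusted form was run as well, and the results of both were known when this choice was made. DESeq2 1.42.0 and edgeR's exact test were alternatives. Levels are CPM after TMM, where 3 counts are between 0.305 and 0.717 CPM by library total. The fitting step was tested on simulated counts. The smallest chi-square per degree of freedom between 2 libraries was 91.1, far above sampling noise, so each library counted as its own sample. Totals from 4183333 to 9842050 counts set the precision, and intervals and floors cover counting error only.

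Named members were the 3 with the highest mean level in each family, the up to 10 with the smallest p in each direction among those meeting the criteria, and any with no count in a group and at least 10 in the other. The members and lists were chosen with earlier results of these data known. The ratio of arms was tested with an exact two-sided permutation test. A correction for GC content was not run, since only 5 of 59 members (8.47%) had a sequence. Same-numbered saline and morphine libraries deviated from their group means with correlations of -0.23, -0.28 and 0.14 over 899 miRNAs, so replicate numbers were not treated as pairs.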

Additional observations from a re-analysis of the deposited data

How the results depend on the processing

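The number of members meeting the study criteria (20) stayed within 1.5 times under every setting except one, at 12 to 28 when 1 library was left out, and their median log2 fold change (1.34) was 1.15 to 2.42. Members with an adjusted p under 0.05 (11) were 18.6% of the members, against 5.21% of all miRNAs. They numbered 6 with TMM factors from the other miRNAs (10.2%, against 3.59% of all), 2 with at least 10 counts in total (4.55% against 3.11%), 6 with edgeR's filterByExpr (24.0% against 9.43%), 2 of 56 with identical miRNAs collapsed before the fit (3.57% against 2.86%), 3 with the bias-adjusted test, a setting added after seeing the data (5.08% against 2.79%), and 0 to 21 when 1 library was left out (0 to 386 of all miRNAs). With the replicate block, 14 members met the criteria, all higher, and 6 had an adjusted p under 0.05 (10.2%, against 2.35% of all miRNAs); the numbers are not shown to pair libraries. Leaving out 1 library gave 1.69 to 3.53 for the log2 change of the miR-297 sum (2.15) and 9 to 36 called members of the miR-379 to miR-410 cluster (16), whose other settings were also added after seeing the data.

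Of 371 values of the named members, 337 kept their direction and side of the threshold, 17 lost and 2 gained the call, and 15 changed sign. These 15 were of members not called with all libraries, and 1 of them, miR-467e-5p without saline replicate 2, met the criteria there. The log2 fold change of miR-297b-5p (0.03) was -0.10 in DESeq2, -0.050 with RLE scaling, -0.022 with at least 10 counts, -0.018 in the exact test, -0.15 with upper quartile scaling, and -1.33 to 4.82 when 1 library was left out. That of miR-297a-5p was 0.015 with the replicate block, 1.98 with libraries thinned to the smallest total, and -1.56 to 3.19 when 1 library was left out. That of miR-467e-5p was 0.46 with the replicate block and -0.81 to 1.54, and that of miR-466i-5p -0.49 to 0.47, when 1 library was left out. The cause of these changes was not tested.

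Against TMM, library totals moved the median of all miRNAs by -0.25 and upper quartile scaling by -0.20, and the share of all calls that were higher was 34.9% and 37.7% in place of 50.0%, while the members' median exceeded that of all miRNAs by 1.12 to 2.21 under all settings. The GC correction, alone and with the replicate block, was not run. The other miRNAs of the Sfmbt2 locus gave no value, because their gene symbols could not be matched to entries of the table.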
